A study of Homo sapiens with 10 samples.

Results

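Long non-coding RNA genes that host small nucleolar RNAs (snoRNAs) were examined for binding by FLAG-tagged MYC. The group was taken from a RefSeq gene table of the human genome (GRCh38.p14) as all non-coding genes whose symbol begins with SNHG and a digit, together with GAS5, ZFAS1, EPB41L4A-AS1 and DANCR. This gave 33 genes among 59679 genes with a chromosomal position, all 33 of them annotated as lncRNA. A gene was counted as bound when the summit of a deposited peak lay within 1 kb of either of its ends. The binding data came from chromatin immunoprecipitation sequencing with mouse NIH3T3 fibroblasts mixed in at 10% as a reference genome. All 10 libraries were from U2OS, a human osteosarcoma line, whose own MYC gene was knocked out and which carried a doxycycline-inducible, FLAG-tagged MYC. Induction was with 1 µg/mL doxycycline for 24 h, and the immunoprecipitating antibody was against FLAG. The induced immunoprecipitates (IPs) were of wild-type MYC (WT), of a mutant called 3A and of a mutant called 7A, with 2 libraries each; the altered residues are not stated in the labels. WT cells without doxycycline gave 2 further IPs, and WT cells with and without doxycycline gave 1 input library each.

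Most snoRNAs are cut from the introns of longer transcripts. Box C/D snoRNAs (SNORD genes) guide 2′-O-methylation and box H/ACA snoRNAs (SNORA genes) guide pseudouridylation, mainly of ribosomal RNA, while the related scaRNAs of Cajal bodies (SCARNA genes) guide the same changes in spliceosomal RNA. The hosts are either protein-coding genes, many of them for ribosomal proteins and translation factors, or non-coding genes such as those described here, whose spliced exons are often degraded quickly. MYC is a transcription factor that dimerizes with MAX on E-box DNA and is known for its binding at genes of ribosome production.

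One peak list was deposited for each induced protein, with 4749 peaks for WT, 845 for 3A and 64 for 7A. No list was used here for the uninduced IPs or the inputs, so background binding in the uninduced state was not measured. With 1 list per protein there is no spread between replicates, and no test between proteins could be made; Wilson and exact Poisson 95% intervals cover counting error only. A peak's fold is the authors' enrichment at its summit over the local background. It was ranked only within its own list. The fragment pileup at a summit, that is, how many fragments covered it, was recovered from the authors' fold and p-value, and its median was 72 over WT peaks and 68 over 3A peaks. Peak lists hold no expression values, so the cell line was not checked against marker genes.

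WT MYC had a summit at 22 of the 33 snoRNA host genes, 3A had one at 12, and 7A at none. The WT share was 66.7% (Wilson 95% interval 49.6 to 80.2%). Over all lncRNA genes it was 5.1%, or 934 of 18303, and over all protein-coding genes it was 16.7%, or 3352 of 20037. Many lncRNA genes abut a protein-coding gene, and of the 3155 other lncRNA genes that have a coding gene end within 1 kb of one of their own, 20.3% were bound. Among the host genes, 13 of the 21 with such a neighbour were bound (61.9%), and 9 of the 12 without one (75%). For other lncRNA genes without a coding neighbour the share was 1.80% (272 of 15115). Both host shares were above those of the other lncRNA genes. Their Wilson 95% intervals were 40.9 to 79.2% with a coding neighbour and 46.8 to 91.1% without one. The part of a coding neighbour in the binding was not tested. All of these shares are counts within 1 list, and transcription was not matched between host genes and other genes. The promoters of the hosts held a median of 25 CpG dinucleotides in 300 bases, against 5 for lncRNA and 22 for protein-coding promoters; the part of CpG content in the share bound was not tested.

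**Figure D1:**
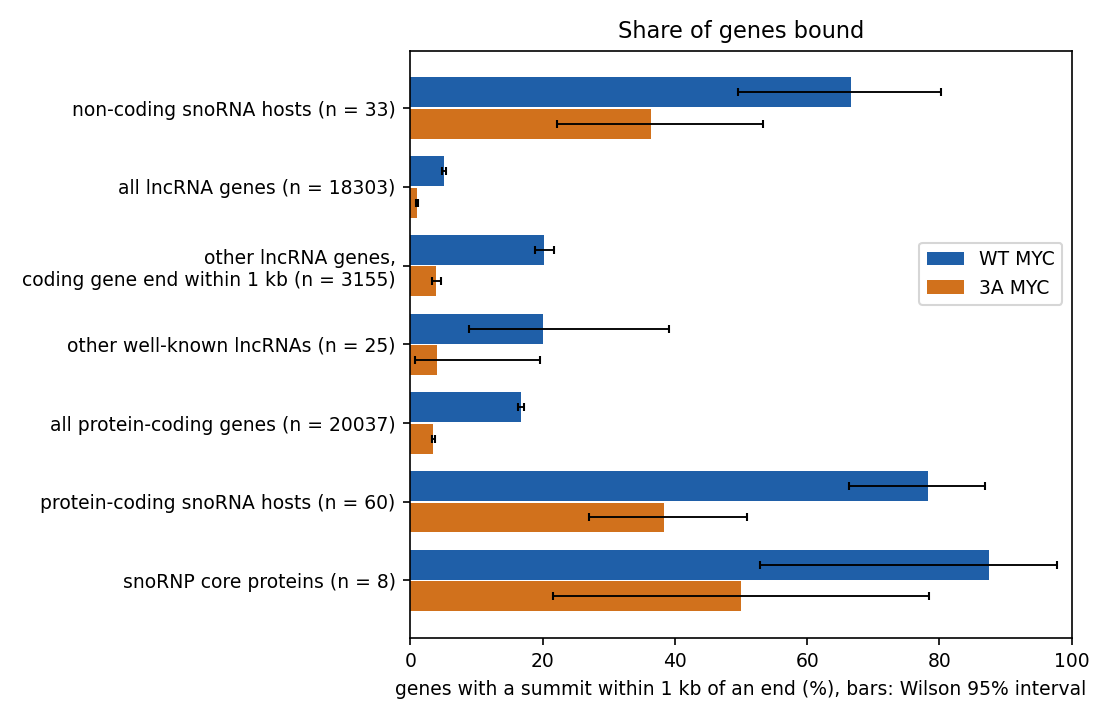
Share of genes (percent) with a WT (blue) or 3A (orange) summit within 1 kb of an end, for the 33 non-coding snoRNA hosts and 6 other gene groups; bars carry Wilson 95% intervals. The hosts stand at 66.7% for WT and 36.4% for 3A, against 5.1% and 0.994% of all lncRNA genes.

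The 22 bound hosts had a median WT fold of 6.87 (range 2.71 to 26.02), against 5.14 over all WT peaks and 5.05 over all bound lncRNA genes. The order-statistic 95% interval of the hosts' median, 4.17 to 10.3, includes both of those medians. Of the 22, 15 lay above the median of the WT list and 8 were among the 10% of WT peaks with the highest folds. The hosts thus spread over nearly the whole range of the list, with a small set at the very top and SNHG3 close to the bottom.

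SNHG15, the host of SNORA9, had the strongest WT peak of the group (chr7:44985318-44987284). Its fold of 26.02 ranked 6 of 4749, with a pileup of 520 fragments (exact Poisson 95% interval 476 to 567) over a local background of 19.02. The summit was 190 bp inside one end of SNHG15, and the nearest end of a protein-coding gene, that of MYO1G, was 7491 bp away. At this locus the peak is thus at the host gene and not at a coding promoter of the gene table.

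SNHG17, which holds 4 members of the SNORA71 family, followed with a fold of 19.6 (rank 20) and a pileup of 463 (422 to 507). SNHG26, the host of SNORD93, had a fold of 16.7 (rank 47) and a pileup of 234 (205 to 266). SNHG7, the host of SNORA17A and SNORA17B, had a fold of 15.8 (rank 59) and a pileup of 236 (207 to 268). Those 4 genes formed the top of the group, and the next value was 10.7, for SNHG20.

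The promoter sequences of the 3 of these 4 genes that have an entry in the RefSeq table (GRCh38.p14) are shown because they carry the strongest binding, next to that of SNHG1, whose window holds the most E-box variants, and of SNHG30, which had no peak. Each runs from 250 bases before to 50 bases after the annotated start, 5′ to 3′ on the gene's strand. Capitals mark the canonical E-box CACGTG and its 4 variants on both strands, and overlapping matches merge into 1 stretch. The variants were CACGCG together with CATGTG, and CATGCG together with CACGAG. The windows are chr9:136728135-136728434 (minus strand), chr20:38435279-38435578 (minus), chr7:22853990-22854289 (plus), chr11:62855836-62856135 (minus) and chr17:35567864-35568163 (plus).
SNHG7: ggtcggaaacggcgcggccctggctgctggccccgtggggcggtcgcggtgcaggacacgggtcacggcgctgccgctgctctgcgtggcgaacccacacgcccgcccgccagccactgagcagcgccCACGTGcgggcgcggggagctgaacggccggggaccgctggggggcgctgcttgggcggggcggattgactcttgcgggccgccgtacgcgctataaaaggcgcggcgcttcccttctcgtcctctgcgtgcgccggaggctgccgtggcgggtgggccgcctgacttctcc
SNHG17: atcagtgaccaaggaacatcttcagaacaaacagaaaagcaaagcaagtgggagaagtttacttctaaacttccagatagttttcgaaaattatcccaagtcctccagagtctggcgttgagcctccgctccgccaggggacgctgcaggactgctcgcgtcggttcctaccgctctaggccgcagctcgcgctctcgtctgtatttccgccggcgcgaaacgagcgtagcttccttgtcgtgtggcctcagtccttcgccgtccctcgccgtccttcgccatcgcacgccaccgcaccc
SNHG26: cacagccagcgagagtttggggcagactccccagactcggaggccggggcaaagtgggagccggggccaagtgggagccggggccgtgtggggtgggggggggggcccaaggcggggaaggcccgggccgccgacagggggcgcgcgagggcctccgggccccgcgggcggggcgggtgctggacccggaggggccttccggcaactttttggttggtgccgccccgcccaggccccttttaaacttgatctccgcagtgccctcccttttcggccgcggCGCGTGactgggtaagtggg
SNHG1: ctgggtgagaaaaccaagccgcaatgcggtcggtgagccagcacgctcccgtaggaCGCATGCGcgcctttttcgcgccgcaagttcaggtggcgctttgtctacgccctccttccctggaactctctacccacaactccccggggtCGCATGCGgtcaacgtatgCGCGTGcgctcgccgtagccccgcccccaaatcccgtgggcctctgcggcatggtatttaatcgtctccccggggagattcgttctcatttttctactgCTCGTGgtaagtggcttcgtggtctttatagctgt
SNHG30: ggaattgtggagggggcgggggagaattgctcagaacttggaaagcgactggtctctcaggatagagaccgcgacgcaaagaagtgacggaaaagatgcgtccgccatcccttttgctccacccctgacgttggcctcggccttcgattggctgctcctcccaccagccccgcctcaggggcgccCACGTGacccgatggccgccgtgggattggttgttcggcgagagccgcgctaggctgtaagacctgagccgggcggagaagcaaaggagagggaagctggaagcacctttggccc

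Among the 18 WT-bound hosts with a promoter entry, SNHG7 was the only one with CACGTG in this window. Its E-box began 122 bases upstream of the start, and its centre lay 29.5 bp from the WT summit. SNHG17 had none of the 5 hexamers although its WT fold was higher. SNHG26 had a CGCGTG 30 bases downstream of the start, 58.5 bp from the summit. SNHG1 had 6 variant matches, counting each of the overlapping CGCATG and CATGCG pairs, and the nearest of them was centred 43.5 bp from the summit. SNHG30, the host of SNORD7, had CACGTG 65 bases upstream of its start, and its nearest WT summit was 157740 bp away. A canonical E-box in the window thus went with a peak at 1 host and with none at the other.

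Over the group, 29 hosts had a promoter entry and 2 of them held CACGTG (6.90%), where 7.43% of all 27305 promoters did. With the 4 variants included it was 14 of 29 (48.3%) against 36.2%. CANNTG, which includes CACGTG and CATGTG, was present in 62.1% and 68.9%. By binding, 8 of the 18 WT-bound hosts and 6 of the 11 unbound hosts had at least 1 of the 5 hexamers. SNHG12, with 2 variant matches, counts as unbound here, although a WT summit lay 66 bp from the start of that promoter. Among WT-bound promoters, CACGTG was found in 16.1% of protein-coding genes and 13.5% of other lncRNA genes, against 1 of 18 bound hosts. At least 1 of the 5 hexamers was found in 55.0% of WT-bound protein-coding and 54.3% of other WT-bound lncRNA promoters, against 44.4% of bound hosts. The share in hosts was thus above that of all promoters and below that of other bound promoters. A missing match says only that these letters are not in this window, and most host summits lay beyond its downstream edge.

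Most WT summits were close to a gene end. Of the 22 bound hosts, 18 had their summit within 250 bp of an end and 11 within 100 bp, with a median of 103 bp (22 to 610). For the 18 with an annotated start, 10 summits were within 100 bp of it. Every one was within 1 kb, which the 1 kb rule largely sets in advance. The summit was more than 250 bp from the start in ZFAS1, SNHG10, EPB41L4A-AS1, SNHG5 and DANCR. The summit lay downstream of the start in 14 hosts and upstream in 4 (SNHG1, SNHG5, SNHG7 and ZFAS1). In SNHG16, SNHG8, SNHG19, SNHG20, SNHG21, SNHG4, SNHG17 and SNHG26 it fell 53 to 91 bp downstream. Only 3 of 18 summits were inside the promoter window itself. Summit positions are those of the fragment pileup and do not locate a bound base.

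**Figure D2:**
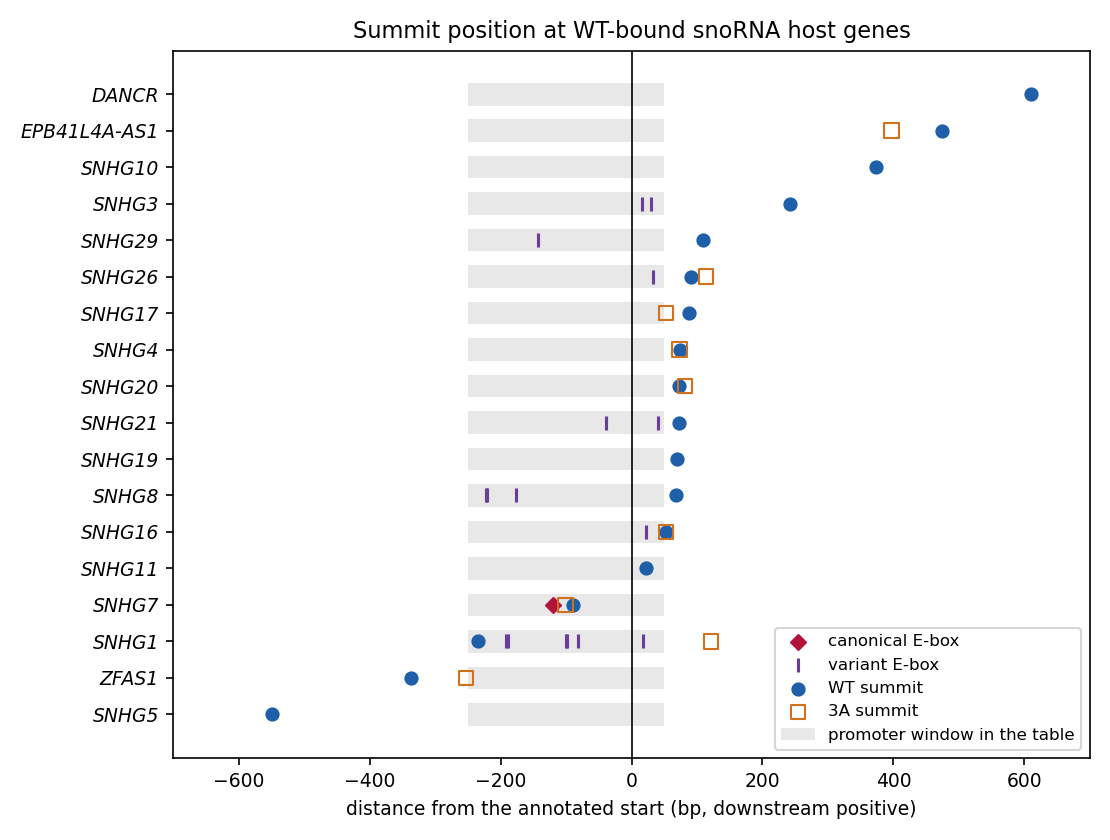
Summit of the WT peak (blue circles) and of the 3A peak (open orange squares) relative to the annotated start of the 18 WT-bound hosts with a promoter entry, in bp, downstream positive; grey bars are the promoter windows, with the canonical E-box as a diamond and the variants as ticks. In 14 hosts the WT summit is to the right of the start, and the 3A squares lie within 84 bp of the WT circles except at SNHG1, where the distance is 356 bp.

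Many ribosomal protein mRNAs begin with a terminal oligopyrimidine tract, a C followed by a run of pyrimidines, and some snoRNA host transcripts are known for the same kind of start. An annotated start of C followed by 4 pyrimidines was found in 7 of the 29 hosts (24.1%), against 4.04% of all promoters and 7.13% of WT-bound protein-coding promoters. This feature was looked at after the binding values were known. The stretches from 10 bases before to 29 after the start are shown for the 7 hosts, with the C and its 4 pyrimidines in capitals, at chr5:139274091-139274130 (plus), chr6:85678704-85678743 (minus), chr16:2155329-2155368 (minus), chr20:49278632-49278671 (plus), chr1:28581844-28581883 (minus), chr6:31834906-31834945 (plus) and chr5:9546190-9546229 (plus).
SNHG4: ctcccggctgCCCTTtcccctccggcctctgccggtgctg
SNHG5: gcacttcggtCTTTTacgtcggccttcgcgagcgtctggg
SNHG19: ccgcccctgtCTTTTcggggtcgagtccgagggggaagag
ZFAS1: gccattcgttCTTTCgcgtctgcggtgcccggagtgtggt
SNHG12: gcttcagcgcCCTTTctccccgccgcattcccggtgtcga
SNHG32: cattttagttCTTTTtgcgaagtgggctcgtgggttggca
SNHG18: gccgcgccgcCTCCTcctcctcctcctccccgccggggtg

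The first 4 of these, SNHG4, SNHG5, SNHG19 and ZFAS1, were bound by WT, and the other 3 were not under the 1 kb rule. The feature was present in 4 of 18 bound hosts and in 3 of 11 unbound ones. Among the unbound ones, SNHG12 had a WT summit 66 bp from its annotated start.

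By the kind of small RNA inside the gene span, both snoRNA families were represented among the bound hosts. The 33 spans held 154 snoRNA or scaRNA genes, of which 84 are in SNHG14 alone, and the 22 WT-bound hosts held 45. Of 12 hosts with H/ACA snoRNAs only, 10 were bound by WT and 5 by 3A. Of 13 with C/D snoRNAs only, 9 were bound by WT and 6 by 3A. Hosts of a scaRNA were bound in 3 of 4 cases by WT (SNHG10, SNHG20 and SNHG21) and in 1 by 3A (SNHG20). SNHG27 and SNHG28, whose spans hold no SNORD, SNORA or SCARNA gene in the table, were not bound. GAS5 and SNHG12, which hold both families, were not bound under the 1 kb rule, but each had a WT summit farther inside its span. The table gives no strand for these genes, so a small RNA on the other strand of a span is counted too.

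Among the C/D hosts, SNHG1 (the U22 host gene, with 8 SNORD genes in its span) had a WT fold of 7.77 and a pileup of 164 (140 to 191). SNHG16, with the SNORD1 genes, had a fold of 7.16 and a pileup of 186. SNHG5, which hosts SNORD50A and SNORD50B, showed a fold of 10.1 at a summit 549 bp upstream of its start. ZFAS1, which hosts the SNORD12 genes, had a fold of 5.51. Lower folds of 4.50 for SNHG25 (SNORD104), 3.84 for SNHG29 (SNORD49A, SNORD49B and SNORD65), 3.78 for SNHG19 (SNORD60) and 3.56 for SNHG6 (SNORD87) were all under the median of the WT list. SNHG26 was the only C/D host above 11.

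Among the H/ACA hosts, SNHG4, with SNORA74A and SNORA74D, had a fold of 9.96 on a low background of 7.73, and its pileup was 86 (68.8 to 106). EPB41L4A-AS1 (SNORA13) had a fold of 6.90 and SNHG9 (SNORA78) one of 6.83. SNHG8 (SNORA24) and DANCR (SNORA26), an RNA described as holding back differentiation, had nearly the same value, 5.93 and 5.92. The DANCR summit was the farthest inside the limit, at 610 bp from the start, and a second WT peak with a fold of 5.21 had its summit 2684 bp into the gene. SNHG11, which hosts SNORA60 and SNORA71E and lies 11379 bp beyond the nearest 3A summit, that of SNHG17, had a fold of 4.17. SNHG3, the host of both SNORA73 genes, had the lowest fold of the bound hosts, 2.71 (rank 4668), over the widest of their peaks (2595 bp).

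The scaRNA hosts differed among themselves in strength. SNHG20 (SCARNA16) and SNHG10 (SCARNA13) had WT folds of 10.7 and 10.3, and SNHG21 (SCARNA15) had 4.13. Their pileups were 182 (157 to 210), 90 (72.4 to 111) and 73 (57.2 to 91.8), and the similar folds of SNHG20 and SNHG10 thus rest on pileups whose intervals do not overlap, with backgrounds of 16.2 and 7.85.

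**Figure D3:**
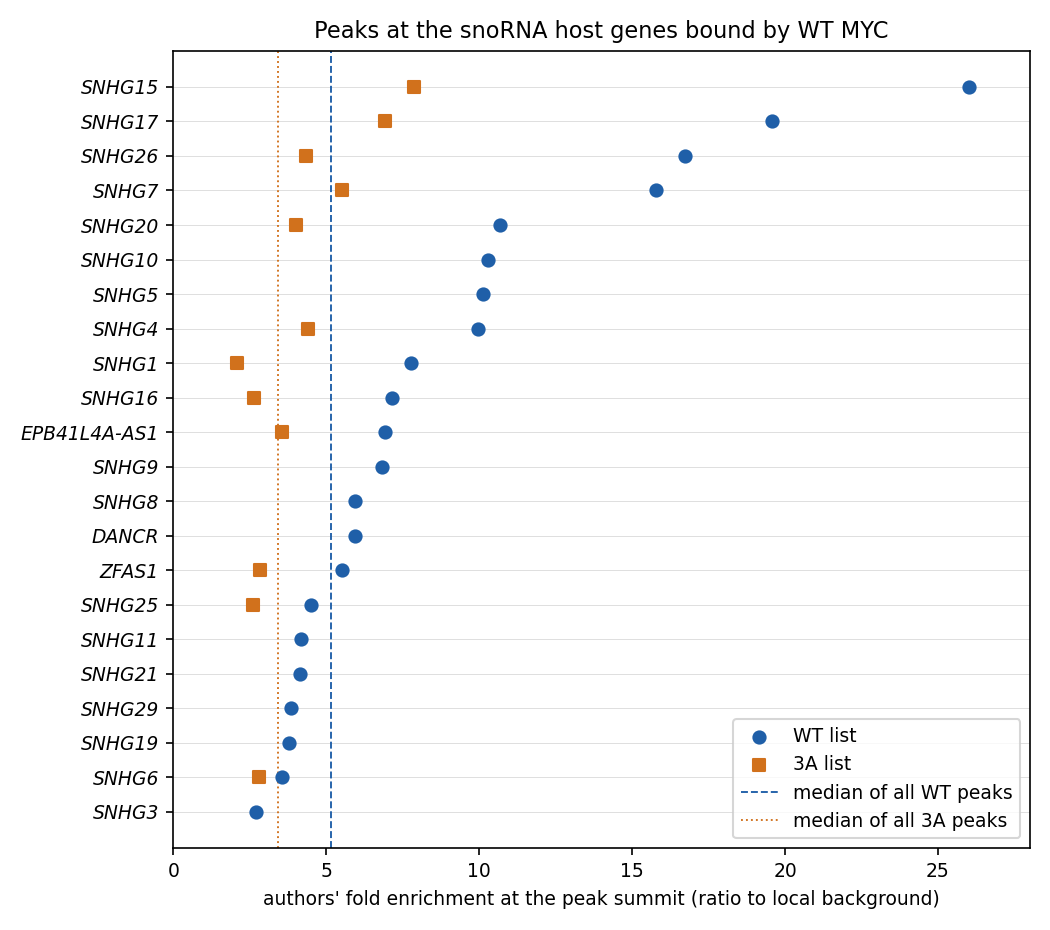
Authors' fold enrichment at the peak summit (ratio to local background, linear axis) for the 22 hosts bound by WT, ordered from top to bottom by WT fold; blue circles are WT values, orange squares are 3A values, each in its own list, and the lines are the medians of all peaks (5.14 in WT, 3.41 in 3A). SNHG15, SNHG17, SNHG26 and SNHG7 stand apart at the top right, and 10 hosts have no orange square.

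Of the 22 WT-bound hosts, 10 had the end of a protein-coding gene within 1 kb of the same summit, so that the peak cannot be given to the host alone. Over the whole WT list, 2857 of 4749 summits (60.2%) had a coding gene end so near, so such sharing is not particular to the hosts. SNHG1 shared its summit with SLC3A2, the heavy chain of an amino acid transporter, whose end was 11 bp away. SNHG20 shared one with SEC14L1 (31 bp), SNHG9 with RPS2, a small-subunit ribosomal protein gene (57 bp), and SNHG4 with MATR3, a nuclear matrix protein gene (74 bp). The other pairs were SNHG7 with LOC124900276 (90 bp), SNHG3 with RCC1, the exchange factor of RAN (142 bp), ZFAS1 with ZNFX1 (248 bp), SNHG19 with TRAF7 (494 bp), SNHG10 with GLRX5 (552 bp) and SNHG6 with MCMDC2 (938 bp). The other 12 had no coding gene end so near, and they included SNHG15, SNHG17 and SNHG26.

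Of the 11 hosts without a WT summit within 1 kb of an end, 3 had a WT summit elsewhere inside the gene span: GAS5, SNHG12 and SNHG14. GAS5, the growth-arrest gene that holds 11 small RNA genes, had a WT summit 1200 bp from its end, inside the gene, with a fold of 5.25 and a pileup of 121; the end of ZBTB37 was 237 bp from that summit. SNHG12 had a WT summit 1176 bp from its end, with a fold of 2.38, and a 3A summit 1138 bp from it, with a fold of 2.61. The annotated start of SNHG12 in the promoter table lies inside the span, and the WT and 3A summits were 66 and 28 bp from that start. Measured from the start, SNHG12 would be bound by both proteins. SNHG14, the imprinted transcript of the Prader-Willi region with the SNORD116 cluster, had a WT summit 54759 bp inside its span, with a fold of 5.16 and a pileup of 79, and no 3A summit in the span.

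SNHG18, SNHG22, SNHG27, SNHG28, SNHG30, SNHG31, SNHG32 and SNHG33 had no WT summit inside the span, and the nearest one was between 69962 bp (SNHG28) and 2953439 bp (SNHG27) from an end. SNHG32, which hosts SNORD48 and SNORD52, was 1781451 bp from the nearest.

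The mutant 3A had a summit at 12 of the 33 hosts (36.4%, Wilson 95% interval 22.2 to 53.4%), where it had one at 0.994% of all lncRNA genes and 3.5% of protein-coding genes. All 12 were also bound by WT: SNHG1, SNHG4, SNHG6, SNHG7, SNHG15, SNHG16, SNHG17, SNHG20, SNHG25, SNHG26, ZFAS1 and EPB41L4A-AS1. They make up 54.5% of the 22 WT-bound hosts (34.7 to 73.1%). Of all WT-bound lncRNA genes, 16.9% also had a 3A summit, and of WT-bound protein-coding genes 18.8%.

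The 3A folds of these hosts ran from 2.08 to 7.86 with a median of 3.78, against a median of 3.41 for the whole 3A list. SNHG15 was the third strongest of all 845 3A peaks (7.86, pileup 174, interval 149 to 202), and SNHG17 ranked 9 (6.91, pileup 180, 155 to 208). SNHG7 ranked 29 with a fold of 5.50 and a pileup of 96 (77.8 to 117). SNHG26, with the third highest WT fold of the hosts, ranked 135 (4.33), behind SNHG4 (rank 118, 4.41). Also above the 3A median were SNHG20 (4.00) and EPB41L4A-AS1 (3.55). ZFAS1 (2.84), SNHG6 (2.80), SNHG16 (2.65), SNHG25 (2.61) and SNHG1 (2.08, rank 832) were below the 3A median.

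The pileup was larger in the WT list than in the 3A list at 11 of these 12 hosts, and equal at SNHG6, with 68 fragments in each. At SNHG15 it was 520 against 174, at SNHG17 463 against 180, at SNHG26 234 against 71 and at SNHG7 236 against 96. The local background at the same hosts was 1.04 to 2.04 times as high in the 3A list as in the WT list, with a median of 1.19. No spike-in scaling was added to these pileups here, and whether the authors' values were already scaled is not stated. The library depths were not used either, so the values are set side by side and no difference between the proteins was tested.

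WT and 3A summits at the 12 shared hosts were close together. The distance between them had a median of 32.5 bp, and it was 50 bp or less in 7 hosts. At SNHG16 the positions were identical, at SNHG4 they were 1 bp apart and at SNHG20 9 bp. The exception was SNHG1, where the 3A summit lay 356 bp from the WT summit, on the other side of the SNHG1 start. Every one of the 12 pairs of peaks overlapped. The 1 kb rule sets part of this closeness in advance, and distances at other genes bound by both proteins are not given here.

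Hosts with a 3A summit had a median WT fold of 8.87 (3.56 to 26.02), and the 10 without one had 5.05 (2.71 to 10.3). Above the hosts' own median WT fold 9 of 11 had a 3A summit, and below it 3 of 11. The same ordering is present over all WT-bound lncRNA genes, with medians of 6.19 and 4.92. The WT pileup was 180 fragments in the median for hosts with a 3A summit and 96 for those without, while the local WT background was alike, at 18.7 and 18.8. SNHG10 (10.3) and SNHG5 (10.1) had high WT folds with no 3A summit nearer than 375231 and 33139 bp. Those folds rest on low backgrounds of 7.85 and 9.18, and the WT pileups were 90 and 102. SNHG6 (3.56) and SNHG25 (4.50) had low WT folds and a 3A summit. The WT pileup of SNHG6 was 68. That of SNHG25 was 134, above the median of hosts without a 3A summit, so SNHG25 was low in fold and not in pileup. The 8 others without a 3A summit were SNHG9, SNHG8, DANCR, SNHG11, SNHG21, SNHG29, SNHG19 and SNHG3, with WT folds of 2.71 to 6.83. Pileup did not separate the hosts fully either. SNHG9 had a WT pileup of 194, above the median of hosts with a 3A summit. SNHG4 had a WT pileup of 86 on a background of 7.73, near the values of SNHG10, and it had a 3A summit. A shared coding gene end was present at 6 of the 12 hosts with a 3A summit and at 4 of the 10 without.

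**Figure D4:**
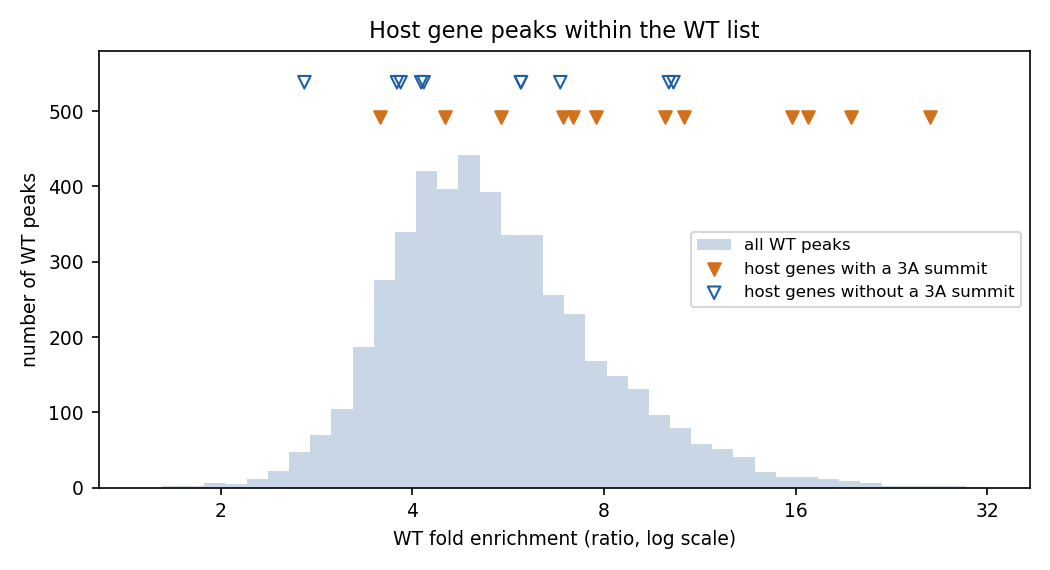
Histogram of the fold enrichment of all 4749 WT peaks (ratio, log axis) with the 12 hosts that have a 3A summit (filled triangles) and the 10 that do not (open triangles) placed at their WT fold. The 4 highest hosts all have a 3A summit, while the open triangles reach 10.3.

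The mutant 7A had no summit within 1 kb of any of the 33 hosts. Its whole list holds 64 peaks, and 0.0492% of lncRNA genes and 0.125% of protein-coding genes were bound, so a count of 0 of 33 is near the background. A count of 0 of 33 allows a share of up to 9.09% if the limit is set at 3 counts, and its Wilson 95% upper limit is 10.4%. Of the 28 hosts on a chromosome with a 7A peak, ZFAS1 was nearest to one, at 1019671 bp.

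Other genes of the snoRNA pathway were taken from lists drawn up with earlier results of these data known, and they are described by counts alone. Of the 8 core proteins of snoRNA particles, WT bound 7, with a median fold of 8.61. The highest were DKC1, the pseudouridine synthase (14.2), GAR1 (13.9), NHP2 (9.72) and NOP58 (8.61), and 3A bound DKC1, GAR1, NOP58 and NOP56. Of 60 protein-coding snoRNA hosts, WT bound 47 (78.3%, against 16.7% of all protein-coding genes), with a median fold of 7.02, and 3A bound 22 of those 47 (46.8%). NCL (27.0), RPL5 (15.6), DKC1 (14.2) and GNL3, a nucleolar GTPase gene (13.0), were the highest. RPS20 had a 3A summit (2.76) without a WT one. The 60 were picked by hand, and a wider definition gave lower values: of all 549 protein-coding genes whose span encloses a snoRNA or scaRNA gene, WT bound 163 (29.7%), with a median fold of 5.61, and 3A bound 52 of those 163 (31.9%). Of the 19488 protein-coding genes that enclose none, WT bound 16.4%, and 18.1% of the bound ones had a 3A summit. The 54.5% of non-coding hosts has an interval of 34.7 to 73.1%, which includes the 46.8% of the picked list. The 31.9% of the wider one lies below it, but its own interval, 25.2 to 39.4%, overlaps that of the hosts. A difference between these shares was not tested. Long genes enclose more small RNA genes, and gene length was not matched. DKC1, NOP56 and NOP58 are on both lists, and the peaks of RPS2 and RCC1 are those counted at SNHG9 and SNHG3.

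A list of well-known long non-coding RNAs other than these hosts was set beside them. WT had a summit at 5 of 25 (20.0%, Wilson 95% interval 8.86 to 39.1%), among them PVT1 (14.3), FIRRE (8.88), DLEU2 (5.49) and TUG1 (4.22, listed as protein-coding in the table), and none of the 5 had a 3A summit. NORAD, which WT did not bind, had a 3A summit with a fold of 2.33, so 3A bound 1 of the 25. The interval of the 33 snoRNA hosts was 49.6 to 80.2%. Both groups were chosen with earlier results of these data known, and the intervals cover counting error only. No conclusion on a difference is therefore drawn from them. The list of 25 was assembled by hand and no test was run on it.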

How the data were processed

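The 10 sequenced libraries were anti-FLAG chromatin immunoprecipitates and inputs. Per the labels' protocols, cells were fixed in 1% formaldehyde for 10 min. MACS2, Picard, Bowtie2, cutadapt and SAMtools appear in the submitters' processing notes, with no version, next to the builds hg38, hg19 and mm10, with no role. How libraries were pooled and whether mouse reads scaled the values is not given in the sources used here. The authors deposited per peak a fold ratio, a −log10 p, a −log10 q and a score made from q, which was not used. Of WT summits 60.2% lay within 1 kb of a coding gene end of GRCh38.p14 and 5.96% after a shift of 100 kb, so hg38 was taken as the build.

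Coordinates count from 1; the summit is the peak start plus the deposited offset. The strongest summit within 1 kb of a gene end was used. Genes on chromosomes 1 to 22, X and Y entered. Pileup n and background b were recovered by taking the fold as (n + 1)/(b + 1) and p as a Poisson upper tail; this matched for 4749 of 4749 WT and 845 of 845 3A peaks within 0.02 of a step. The calling and recovery were tested on simulated data. Promoters came from RefSeq, 1 per gene; SNHG6, SNHG9, SNHG15 and SNHG25 had no entry. All 33 hosts are named; of 94 symbols on the 3 comparison lists 93 matched, and up to 4 bound genes with the highest WT fold are named for each. The hosts and lists were chosen with earlier results of these data known. No test was run. Software was pandas 2.3.3, scipy 1.17.1, numpy 2.4.6 and matplotlib 3.10.9 under Python 3.11.15.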

Additional observations from a re-analysis of the deposited data

How the results depend on the processing

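The counts of bound hosts held within 1.5 times under every alternative set: windows of 500 bp and 5 kb, a −log10 q of at least 5 or 10, distance to the annotated start, overlap in place of the summit, and 1 host per summit. WT counts were 19 to 24, 3A counts 9 to 13 and 7A counts 0. The WT count of 19 is for distance to the annotated start and is out of 29 hosts. It leaves out SNHG6, SNHG9, SNHG15 and SNHG25, which have no promoter entry, and adds SNHG12. At a −log10 q of at least 10, SNHG1, SNHG6 and SNHG16 lost their 3A peak, and the share of WT-bound hosts with a 3A summit was 40.9%. That share was 36.4% when 50% of both peaks had to overlap, and 50% among hosts with no coding gene end at the summit, an alternative chosen after seeing the data. A window of 5 kb added GAS5 and SNHG12 for WT, and with it 18 of 24 hosts had a coding gene end in reach, against 10 of 22, the wider window itself admitting more ends. Promoters with an E-box numbered 2 with CACGTG alone and 14 with the 4 variants, since more words were searched. No paired analysis was possible because each protein has 1 peak list and the lists carry no replicate numbers. A host with no 3A or 7A peak may have binding below what the peak calling detects at these depths, which were not used here.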

Other observations

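Beyond the named hosts, other genes of the table also enclose a snoRNA or scaRNA gene. Of 119 other lncRNA genes that do, WT MYC bound 13 (10.9%), and 12 of these summits lay within 1 kb of a coding gene end. The highest folds were 8.13 at CHD4-AS1, whose span holds SCARNA11 and whose summit is at NOP2, a nucleolar RNA methyltransferase gene, 7.61 at LOC105379283 (SNORA14B, at TOMM20) and 7.49 at STARD7-AS1 (SNORA112). The last 2 of these also had a 3A summit, with folds of 3.87 and 2.54.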
